A study of Mus musculus with 12 samples.

Results

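Tumour-associated macrophages (TAMs) are macrophages that gather in a tumour, where different subsets take up debris, present antigen and shape the vessels and matrix. The comparison described here is between 2 TAM populations sorted from tumours of the Lewis lung carcinoma line (LLC), a mouse lung cancer kept by transplantation, grown under the skin of C57BL/6 mice. F4/80+MRC1+ cells gave 3 RNA-seq libraries, here called MRC1+, and F4/80+CD11c+ cells gave 3, here called CD11c+. These 6 libraries were chosen by their titles and are 6 of the 12 in the series. The other 6 come from TAMs that carry miR-511-3p or a mutated form of it and were used only in 1 alternative fit. Both groups share strain, tumour line and the F4/80 gate, and the labels name no treatment, transgene, age or time after tumour injection for them. The labels do not say whether each library came from its own mouse or from pooled mice, so the p-values weigh a difference against the spread of libraries that may be technical repeats. In sorted bulk RNA, fewer cells of a type and less RNA per cell cannot be told apart.

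MRC1 is a mannose receptor that takes up glycoproteins, and it marks macrophages that lie near vessels and take part in tissue repair. CD11c, encoded by Itgax, is an integrin chain found on dendritic cells and on macrophages that present antigen. Macrophages sense microbes and damage with cytosolic NOD-like receptors and nucleic acid sensors. Transcription factors of the interferon regulatory factor (IRF) and STAT families act in their responses to these and other signals. Pairs of activating and inhibitory immunoglobulin-like receptors set the threshold of their response, and growth factors, lipid mediators and transporters link them to neighbouring cells.

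The sorting markers were examined as a check of the labels, and their levels are no finding. Mrc1 stood at 4099, 3623 and 3609 CPM (counts scaled to the depth of the library) in MRC1+ libraries 1 to 3 and at 1447, 1826 and 1574 CPM in CD11c+ libraries 1 to 3. Itgax stood at 122.6, 104 and 78.6 CPM in MRC1+ and 943, 1051 and 972 CPM in CD11c+ libraries, the wider of the 2 gaps. Adgre1, which encodes F4/80, was present in all 6 libraries, at 1230, 1028 and 1086 CPM in MRC1+ and 568, 770.2 and 586 CPM in CD11c+ libraries. The order of Mrc1 and Itgax was that of the labels in every library, F4/80 RNA was present throughout, and the CD11c+ cells kept much Mrc1 RNA.

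The libraries held 15664146 to 17689064 reads counted to genes in MRC1+ and 10824918 to 17318957 in CD11c+ samples. Of 15622 genes tested, 1080 were higher and 1517 lower in MRC1+ cells at an adjusted p under 0.05 (edgeR's quasi-likelihood test, Benjamini-Hochberg adjustment). That is 6.91% higher and 9.71% lower, 16.6% in all. Fold changes are given as log2 of MRC1+ over CD11c+ with their standard error (SE), so a negative value is lower in MRC1+ cells. The 2 groups of 3 libraries did not overlap for 38.3% of tested genes, and for the genes given below as higher or lower they do not overlap unless this is said. With upper-quartile scaling the split moved to 1348 higher and 1325 lower, with a median shift of all genes of 0.06. The totals fell to 410 higher and 860 lower without MRC1+ library 2, to 390 and 889 without MRC1+ library 3, and to 534 and 956 without CD11c+ library 2. Without CD11c+ library 3 they were 673 and 1071.

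CD11c+ library 1 stood apart from CD11c+ libraries 2 and 3. The second principal component of the 6 libraries, with 13.9% of the variance, placed it alone at one end, while the first, with 66.3%, separated the 2 groups. On the first, CD11c+ library 1 stood at 18, nearer to MRC1+ libraries than CD11c+ libraries 2 and 3 at 41.3 and 56.3. Libraries 2 and 3 differed from each other too. The chi-square per degree of freedom, a measure of spread beyond sampling noise, was 20.1 for them, against 22.1 for libraries 1 and 2 and 35 for 1 and 3. At 10 CPM or more, 218 of 9859 genes were at least 2-fold higher in library 1 than in the mean of libraries 2 and 3, and 79 were at least 2-fold lower. No such counts were made for library 2 or 3. The genes farthest up or down in library 1 were taken where libraries 2 and 3 differed by under 1.5-fold. Of the 8 genes farthest up there, Dcn, Fbn1, Thbs2, Dpt, Col8a1 and Col3a1 encode matrix proteins, and the others were Slc38a4 and Cpa3. Dcn, a matrix proteoglycan, read 144, 25.5 and 32.7 CPM in the 3 CD11c+ libraries and 88.5, 50.04 and 72.4 CPM in MRC1+ libraries. Col3a1, a fibrillar collagen, read 770.2, 165 and 221 CPM in CD11c+ and 566, 374 and 535 CPM in MRC1+ libraries. Library 1 was thus above every MRC1+ library for both genes, and libraries 2 and 3 were below every one. The mast cell protease gene Cpa3 followed the same order, with 33.3, 8.16 and 7.41 CPM in CD11c+ and 17.7, 16.1 and 13.8 CPM in MRC1+ libraries. Among the 8 genes farthest down were genes induced on activation: Cxcl10, an interferon-induced chemokine, read 119, 228 and 341 CPM in CD11c+ and 89.3, 102 and 138 CPM in MRC1+ libraries, so that library 1 lay within the MRC1+ range. Nfkbie, an inhibitor of NF-kappaB, read 152, 292 and 396 CPM in CD11c+ and 126, 159.5 and 182 CPM in MRC1+ libraries, with the same overlap.

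Marker genes of other cell types were summed in each library. The 14 fibroblast markers summed to 890.2 to 1143 CPM in MRC1+ and 381 to 1522 CPM in CD11c+ libraries, and 0 of 14 passed the test with 6 libraries (edgeR; 12 of 14 were higher in MRC1+ without CD11c+ library 1). Neutrophil markers summed to 58.4 to 80.1 CPM in MRC1+ and 53.0 to 124 CPM in CD11c+ libraries, and 1 of 5 tested passed: Csf3r, the receptor of granulocyte colony-stimulating factor, was lower with a log2 fold change of -0.62, and its call was lost without any 1 of MRC1+ libraries 1, 2 and 3 and CD11c+ libraries 2 and 3 (highest edgeR adjusted p = 0.103). S100a8 and S100a9, calcium-binding proteins of neutrophils and monocytes, were highest in CD11c+ library 1 and lowest in CD11c+ library 2. S100a9 read 25.1, 19.8 and 30.8 CPM in MRC1+ and 51.9, 8.10 and 19.9 CPM in CD11c+ libraries. The granule genes Mpo and Elane and the surface gene Ly6g were at 1.10 CPM or below in all 6, with overlap between the groups. Eosinophil and mast cell markers summed to 49.9 to 57.1 and 51.8 to 104 CPM, T and NK cell markers to 12.3 to 20.3 and 22.8 to 34.5 CPM, and B cell markers to 19.6 to 21.9 and 23.4 to 28.2 CPM. Epithelial and carcinoma markers summed to 151 to 219 and 125 to 179 CPM, with Cldn4 and Esrp1 at or near 0 in every library. All 6 tested members of that list passed with 6 libraries, 4 higher and 2 lower in MRC1+ cells. The keratin genes Krt8 and Krt18 and the chromatin protein gene Hmga2, which carcinoma cells express, were among the higher ones, and the adhesion molecule Cdh1, at 6.09, 3.69 and 3.78 CPM and 51.5, 59.8 and 65.6 CPM, was among the lower. Krt8 read 31.2, 46.7 and 40.6 CPM in MRC1+ and 27.3, 13.7 and 10.4 CPM in CD11c+ libraries, and Hmga2 read 86.2, 124 and 116 CPM and 74.3, 51.2 and 34.9 CPM. CD11c+ library 1 was the highest of its group for both, and the calls of Krt8, Krt18 and Hmga2 were each lost in at least 1 of the fits without MRC1+ libraries 1, 2 and 3 and CD11c+ libraries 2 and 3 (highest edgeR adjusted p of each gene, 0.114 to 0.141). Endothelial markers summed to 39.7 to 50.04 CPM in MRC1+ and 91.98 to 137 CPM in CD11c+ libraries, of which Pecam1, also a leukocyte gene, read 19.0, 27.7 and 16.3 CPM and 65.2, 104 and 80.3 CPM. Of 6 tested endothelial markers 3 were lower, with Pecam1 and the VEGF receptor Kdr among them, and 1 was higher, the cadherin Cdh5 (log2 fold changes -1.07 for Kdr and 1.26 for Cdh5). The calls of Kdr and Cdh5 were each lost in at least 1 of the fits without MRC1+ libraries 2 and 3 and CD11c+ libraries 2 and 3 (highest edgeR adjusted p of each gene, 0.0719 to 0.106). Markers of dendritic cells summed to 180.2 to 206 CPM in MRC1+ and 575 to 904 CPM in CD11c+ libraries, and those of monocytes to 1010 to 1372 and 2872 to 4133 CPM. Of 15 dendritic cell markers 13 were lower and 0 higher in MRC1+ cells, with a median log2 fold change of -2.37. Of 12 monocyte markers 11 were lower and 0 higher, with a median of -1.75. The lower counts were 13 for dendritic cell and 9 to 12 for monocyte markers in the fits that left out 1 library. None of the dendritic cell or monocyte markers was at 0 in MRC1+ libraries. The part of these cells in the results below was not tested.

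**Figure D1:**
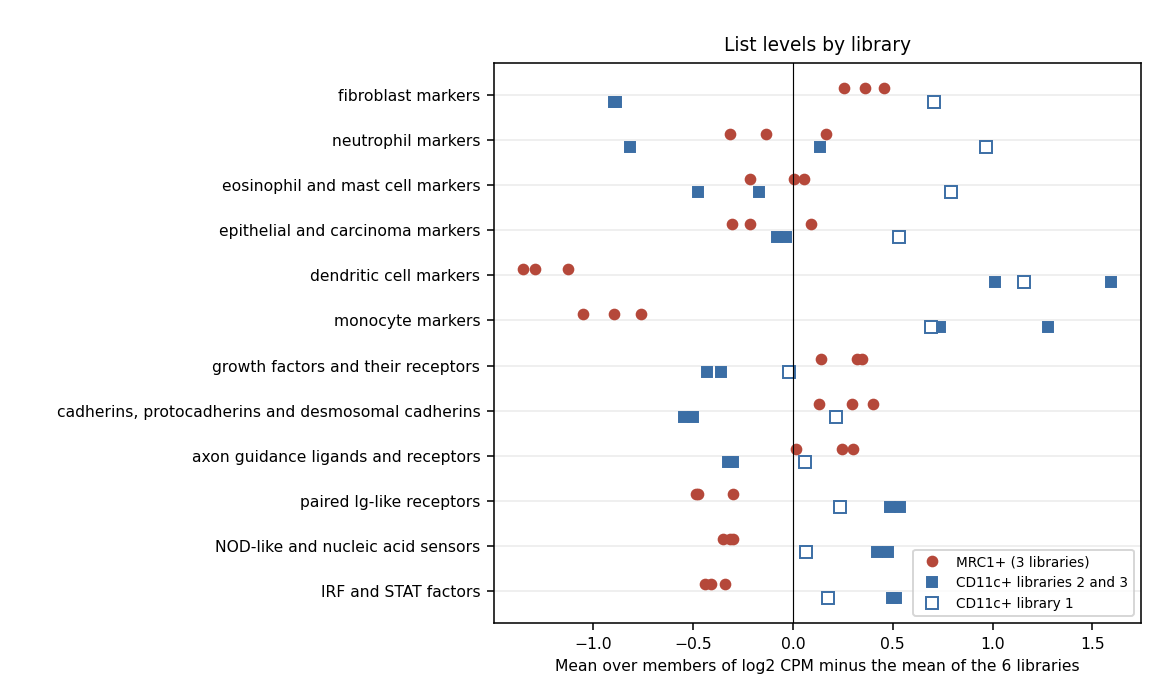
List levels in the 6 libraries. Each point is 1 library, and the x axis is the mean over a list's members of log2 CPM minus that gene's mean over the 6 libraries; CD11c+ library 1 (open square) lies near the MRC1+ libraries for fibroblast markers, growth factors, cadherins and guidance genes, and on the CD11c+ side for sensors, IRF and STAT factors and paired receptors.

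Each family below is given with 6 libraries and without CD11c+ library 1. Leaving it out raised the background to 14.8% higher and 14.8% lower of 15926 genes tested (29.6% in all). Of the 2597 calls made with 6 libraries, 2531 were also made without it in the same direction, and 2136 genes passed only without it. Counts of 5 or more that moved by over 1.5 times when 1 of the other 5 libraries was left out are given with that library, and smaller counts are not followed through these fits unless this is said.

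**Figure D2:**
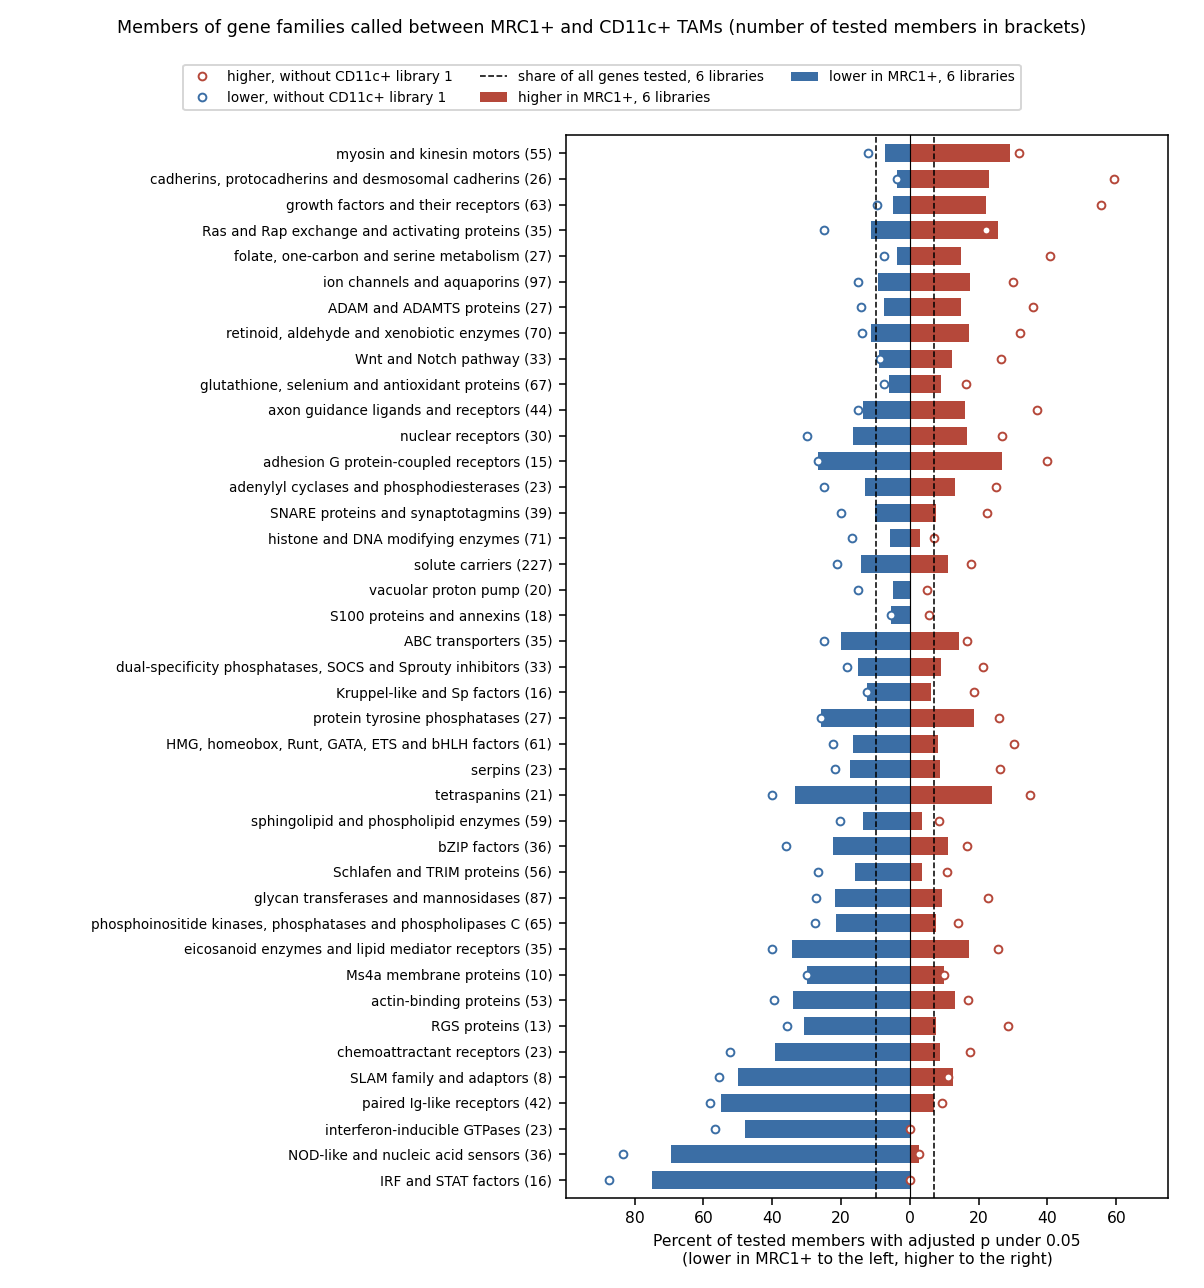
Share of tested members called in the gene families described. Bars show the percent higher (right) and lower (left) in MRC1+ cells with 6 libraries, open circles the same without CD11c+ library 1, and dashed lines the share among all genes tested (6.91% and 9.71%). IRF and STAT factors, sensors, paired receptors and SLAM genes reach farthest left, and motors, adhesion receptors and regulators of Ras and Rap farthest right.

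With 6 libraries, most tested genes of cytosolic sensors and most tested genes of IRF and STAT factors were lower in MRC1+ cells. A smaller share of the genes of interferon-inducible defence was lower too. Of 36 tested NOD-like and nucleic acid sensors, 25 were lower and 1 was higher, and 30 were lower without CD11c+ library 1. Of 16 IRF and STAT factors, 12 were lower and 0 higher (14 lower without that library). Of 23 genes in the list of interferon-inducible GTPases 11 were lower and 0 higher (13 lower without it). That list also held Gimap genes, which belong to another GTPase family: Gimap3, Gimap4, Gimap6, Gimap8 and Gimap9 were among the 23, and none of these passed with 6 libraries. The median log2 fold change over all tested members was -0.61 for sensors, -0.63 for IRF and STAT factors and -0.60 for the GTPases, against 0.01 over all genes. A fit that treats libraries of the same replicate number as a pair (the replicate block) had a background of 7.24% higher and 10.6% lower, and gave 14 lower and 1 higher GTPases.

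These 3 counts shrank when another library was left out. The count of lower sensors was 14 without MRC1+ library 3 and 16 without MRC1+ library 2 or CD11c+ library 2. The count of lower IRF and STAT factors was 6 without MRC1+ library 3 and 7 without MRC1+ library 1, MRC1+ library 2 or CD11c+ library 2, and that of lower GTPases was 5 without CD11c+ library 2, 6 without MRC1+ library 2 and 7 without MRC1+ library 3. In every one of these fits each family held more lower than higher members.

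Nod2, a cytosolic sensor of bacterial muramyl dipeptide, read 25.9, 27.2 and 34.3 CPM in MRC1+ and 67.4, 130.0 and 161 CPM in CD11c+ libraries. Its log2 fold change was -2.03 (SE 0.29), with an edgeR adjusted p = 0.00275, and CD11c+ library 1 was the lowest of its group. Ciita, the NOD-like family member that switches on MHC class II genes, read 60.9, 49.5 and 30.8 CPM in MRC1+ and 254, 278 and 247 CPM in CD11c+ libraries (log2 fold change -2.47 (SE 0.22), edgeR adjusted p = 0.000319). Ifi209, 1 of a cluster of related interferon-inducible DNA sensor genes, read 104, 88.9 and 85.3 CPM in MRC1+ and 193, 259.8 and 266 CPM in CD11c+ libraries (log2 fold change -1.37 (SE 0.14), edgeR adjusted p = 0.000634). The other lower sensors included Nod1, Nlrx1, Nlrc5, Nlrp1a, Nlrp1b, 5 Naip genes, Aim2, Zbp1, Dhx58 and Tmem173, which encodes STING. Their log2 fold changes were smaller, from -0.39 for Naip6 to -0.83 for Nlrx1. The calls of Nod1, Nlrc5, Aim2, Zbp1, Dhx58, Naip6 and Tmem173 were each lost in at least 1 of the fits without MRC1+ libraries 1, 2 and 3 and CD11c+ libraries 2 and 3 (highest edgeR adjusted p of each gene, 0.0517 to 0.116). Naip and Ifi200 genes have near-identical copies whose shared reads were not counted, so the split between copies is uncertain.

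Nlrc3, which restrains T cell and macrophage signalling, was the 1 sensor that was higher. It read 4.54, 4.64 and 7.13 CPM in MRC1+ and 2.52, 2.502 and 2.37 CPM in CD11c+ libraries (log2 fold change 1.13 (SE 0.23), edgeR adjusted p = 0.0145). The call was lost without MRC1+ library 3 (edgeR adjusted p = 0.051) and without CD11c+ library 2 (edgeR adjusted p = 0.0508).

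Among the transcription factors, Irf4 and Stat4 had the widest gaps. Irf4, a factor of dendritic cell and alternatively activated macrophage programmes, read 16.4, 17.9 and 17.7 CPM in MRC1+ and 91.2, 96.9 and 142 CPM in CD11c+ libraries, a log2 fold change of -2.66 (SE 0.18). Stat4, which carries the interleukin-12 signal, read 11.6, 11.7 and 9.02 CPM in MRC1+ and 32.6, 42.4 and 49.9 CPM in CD11c+ libraries (log2 fold change -1.95 (SE 0.18), edgeR adjusted p = 0.000345). Irf5, Irf7, Irf8, Irf1, Irf2, Irf9, Stat2, Stat3 and Stat5b were also among the lower factors, by log2 values from -0.32 for Stat5b to -0.99 for Irf7. Of these, Irf5, Irf8 and Irf2 passed in every fit that left out 1 library. The calls of Irf7, Irf1, Irf9, Stat2, Stat3 and Stat5b were each lost in at least 1 of the fits without MRC1+ libraries 1, 2 and 3 and CD11c+ libraries 2 and 3 (highest edgeR adjusted p of each gene, 0.0511 to 0.106). Irf4 and Irf8 also stand among the dendritic cell markers.

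Tgtp1, an interferon-induced GTPase that attacks the vacuoles of parasites, read 0.871, 1.11 and 0.61 CPM in MRC1+ and 4.40, 3.52 and 4.63 CPM in CD11c+ libraries. This was the widest gap of the family, with a log2 fold change of -2.25 (SE 0.27) and an edgeR adjusted p = 0.00112, at a low level. Gbp4, a guanylate-binding protein, read 62.0, 58.7 and 38.5 CPM in MRC1+ and 126, 147 and 103 CPM in CD11c+ libraries (log2 fold change -1.24 (SE 0.20), edgeR adjusted p = 0.0044). Gbp2, Gbp2b, Gbp3, Gbp8, Gbp9, Gbp11, Mx1, Gvin1 and Irgm1 were lower too, by log2 values from -0.57 for Irgm1 to -1.23 for Gbp8. The calls of Gbp2, Gbp3, Gbp8, Gbp9, Gbp11 and Irgm1 were each lost in at least 1 of the fits without MRC1+ libraries 1, 2 and 3 and CD11c+ libraries 2 and 3 (highest edgeR adjusted p of each gene, 0.062 to 0.148). Tgtp1 and several Gbp genes have close copies, so their counts may be split.

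**Figure D3:**
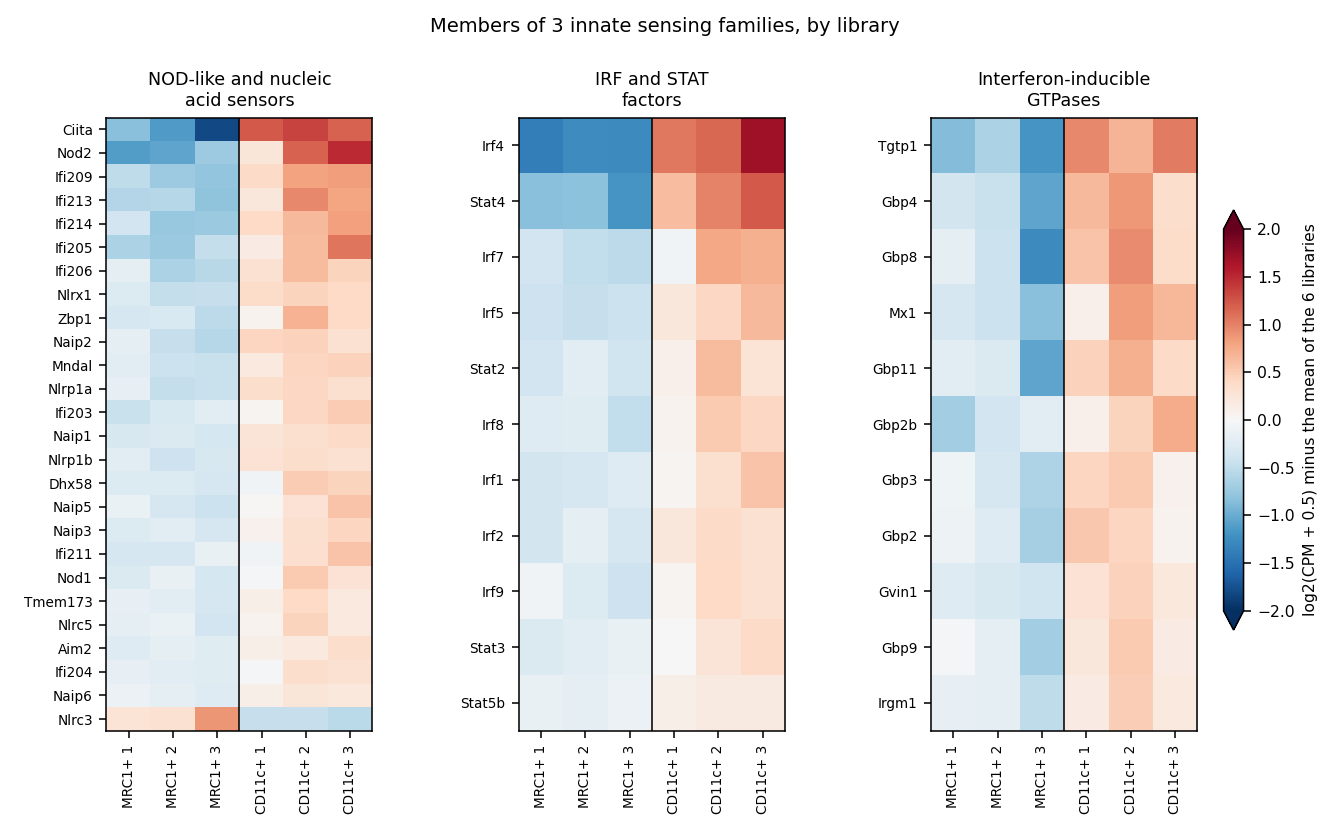
Members of 3 families (sensors, IRF and STAT factors, and interferon-inducible GTPases) that passed the test, in the 6 libraries. Each cell is log2(CPM + 0.5) minus the gene's mean over the 6 libraries, with colours running out at 2 in either direction; all rows but Nlrc3 are low in the 3 MRC1+ columns, and CD11c+ library 1 is paler than libraries 2 and 3 for many sensors and factors.

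Promoters of the GTPase genes are shown because 11 of its 23 tested members were lower and 0 higher, and an interferon response element was searched for. The element was written as GAAA, then any 2 bases, then GAAA, and searched on both strands from 250 bases before to 50 after each start in RefSeq, build GRCm38.p6, which is not the build of the counts. It was found in 3.44% of all 32841 promoters, in 2.27% of those of genes higher in MRC1+ cells and in 6.8% of those of lower genes. Of 17 promoters matched to 15 of the 23 tested GTPase genes, 9 held it (52.9%), and of 6 promoters of the 5 matched genes that were lower, 5 did (83.3%). The promoters without it were those of Gimap3, Gimap4, Gimap6, Gimap8, Gimap9 and Ifi47, which did not pass the test, and another start of Gbp3. Outside the Gimap genes, the matched members that did not pass were Gbp7, Irgm2, Igtp and Tgtp2, which held a match, and Ifi47. The element thus did not set the lower genes apart from these. Of 34 promoters of tested sensors 12 held it (35.3%), and of 16 promoters of the lower IRF and STAT factors 3 did (18.8%). The 4 promoters below belong to lower genes, read 5′ to 3′ along the gene, and carry the matches in capitals; overlapping matches run together.
Tgtp1: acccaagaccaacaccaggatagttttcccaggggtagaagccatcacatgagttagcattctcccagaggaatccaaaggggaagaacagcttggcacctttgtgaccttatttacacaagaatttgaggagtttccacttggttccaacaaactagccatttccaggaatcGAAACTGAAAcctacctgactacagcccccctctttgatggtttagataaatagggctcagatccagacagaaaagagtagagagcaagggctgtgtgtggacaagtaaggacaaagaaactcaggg
Gbp3: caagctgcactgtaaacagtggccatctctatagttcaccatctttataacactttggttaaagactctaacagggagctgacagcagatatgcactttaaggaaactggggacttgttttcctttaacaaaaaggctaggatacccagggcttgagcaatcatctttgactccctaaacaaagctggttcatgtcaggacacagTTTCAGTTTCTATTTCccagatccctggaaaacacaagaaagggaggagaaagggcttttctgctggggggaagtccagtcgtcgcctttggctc
Gbp2: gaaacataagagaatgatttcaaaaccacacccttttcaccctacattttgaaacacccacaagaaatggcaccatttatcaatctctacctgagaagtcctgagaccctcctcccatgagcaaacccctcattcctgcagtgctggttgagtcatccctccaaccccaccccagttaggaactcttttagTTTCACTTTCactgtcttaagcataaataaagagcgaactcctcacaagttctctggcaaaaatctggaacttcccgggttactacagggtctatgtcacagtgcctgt
Irgm1: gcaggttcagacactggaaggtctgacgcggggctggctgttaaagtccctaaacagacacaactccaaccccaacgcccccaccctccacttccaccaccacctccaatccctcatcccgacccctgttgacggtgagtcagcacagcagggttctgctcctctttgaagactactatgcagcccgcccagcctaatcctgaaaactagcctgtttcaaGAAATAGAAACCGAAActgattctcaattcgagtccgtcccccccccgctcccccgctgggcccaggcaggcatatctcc
They lie at chr11:48992197-48992496 on the minus strand for Tgtp1, chr3:142559794-142560093 on the plus strand for Gbp3, chr3:142620413-142620712 on the plus strand for Gbp2 and chr11:48871371-48871670 on the minus strand for Irgm1. The match nearest the 5′ end begins 77 bases before the start in Tgtp1, 45 in Gbp3, 59 in Gbp2 and 30 in Irgm1. In Gbp3 and Irgm1 a pair of overlapping matches forms a longer run of the same repeat. Of the other 4 motifs searched, an AP-1 site (TGANTCA) stood in 3 of the 6 promoters of lower GTPase genes and a MAF site (TGCTGAC) in 1. A PU.1 site (GAGGAAGT) and an E-box (CACGTG) stood in none of the 6. The shares among all promoters were 7.81% for AP-1, 4.67% for MAF, 3.2% for PU.1 and 7.15% for the E-box, and PU.1 stood in 6.25% of promoters of all lower genes and 3.68% of those of all higher genes.

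Schlafen and TRIM proteins, some of which restrict viruses, were called at 19.6%, near the 16.6% of all genes, with a median log2 fold change of -0.04. Of 56 tested, 9 were lower and 2 higher (15 and 6 without CD11c+ library 1; lower count 5 without MRC1+ library 3 or CD11c+ library 2). Slfn1, which restrains lymphocyte growth, read 34.5, 29.2 and 24.9 CPM in MRC1+ and 66.0, 99.3 and 84.7 CPM in CD11c+ libraries (log2 fold change -1.495 (SE 0.17), edgeR adjusted p = 0.00102). Trim30b and Trim30d, of a cluster of near-identical genes, were among the other lower members, with -1.17 and -0.77. Trim2, a ubiquitin ligase known from neurons, was higher, at 18.1, 18.6 and 21.1 CPM against 10.3, 8.99 and 9.47 CPM (log2 fold change 1.01 (SE 0.12), edgeR adjusted p = 0.00113).

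Paired immunoglobulin-like receptors, which hold activating and inhibitory members side by side in the genome, were mostly lower in MRC1+ cells. Of 42 tested, 23 were lower and 3 higher, and 25 and 4 without CD11c+ library 1. The median over all tested members was -0.83. The block fit gave 22 lower and 5 higher, and 6 were higher without CD11c+ library 2. Cd300e, an activating receptor of monocytes, read 2.80, 2.64 and 2.44 CPM in MRC1+ and 19.8, 24.8 and 26.4 CPM in CD11c+ libraries (log2 fold change -3.17 (SE 0.16), edgeR adjusted p = 4.53e-05). Siglecg, an inhibitory receptor for sialic acid, read 0.684, 0.527 and 0.548 CPM in MRC1+ and 3.28, 5.06 and 9.06 CPM in CD11c+ libraries (log2 fold change -3.26 (SE 0.43), edgeR adjusted p = 0.00185). Fcrl5, an Fc receptor-like protein, read 0.746, 0.633 and 0.61 CPM in MRC1+ and 5.04, 6.37 and 5.35 CPM in CD11c+ libraries (log2 fold change -3.07 (SE 0.23)). Both kinds of receptor were among the lower members. Activating ones included Trem1 at -2.88, Trem3 at -2.62 and Pilrb1 at -1.85, and inhibitory ones Cd300a at -1.14, Cd300lf at -1.84, Pilra at -1.04 and Siglece at -1.10 on the log2 scale. Treml4, also a member, is 1 of the monocyte markers.

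The 3 higher members were Siglec1, Fcrls and Cd300ld4. Siglec1, or sialoadhesin, a macrophage receptor that binds sialic acid on other cells, read 152, 163 and 154 CPM in MRC1+ and 33.0, 69.8 and 41.99 CPM in CD11c+ libraries. Its log2 fold change was 1.70 (SE 0.24), with an edgeR adjusted p = 0.00272, and CD11c+ library 2 was the highest of its group. Fcrls, an Fc receptor-like scavenger protein of tissue macrophages, read 127, 69.2 and 108 CPM in MRC1+ and 34.4, 20.2 and 31.7 CPM in CD11c+ libraries (log2 fold change 1.82 (SE 0.26), edgeR adjusted p = 0.00271). Cd300ld4 read 2.86, 3.27 and 2.80 CPM and 0.528, 1.31 and 0.412 CPM (log2 fold change 1.91 (SE 0.37)), and Cd300 genes share near-identical stretches.

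Of 8 SLAM receptors and adaptors, most of which pass signals between leukocytes by binding their own kind, 4 were lower and 1 was higher (5 and 1 without CD11c+ library 1). Cd244a read 48.5, 43.9 and 37.3 CPM in MRC1+ and 154, 198 and 216 CPM in CD11c+ libraries (log2 fold change -2.13 (SE 0.15), edgeR adjusted p = 0.000109). Slamf8, a regulator of phagosome activity in macrophages, read 58.3, 54.1 and 39.9 CPM in MRC1+ and 106, 136 and 95.2 CPM in CD11c+ libraries (log2 fold change -1.15 (SE 0.18), edgeR adjusted p = 0.00368). Slamf9 was lower and Ly9 higher, by log2 values of -0.69 and 0.56. In the Ms4a family 3 of 10 were lower and 1 higher (3 and 1 without CD11c+ library 1). Ms4a7, a marker of mature macrophages, read 472, 361 and 384 CPM in MRC1+ and 186, 211 and 211 CPM in CD11c+ libraries, while Ms4a4c read 75.05, 54.6 and 51.8 CPM and 189, 246 and 285 CPM. The log2 fold changes were 1.001 (SE 0.12) for Ms4a7 and -1.99 (SE 0.19) for Ms4a4c.

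Receptors for chemoattractants were lower more often than higher. Of 23 tested, 9 were lower and 2 higher (12 and 4 without CD11c+ library 1). Several of the lower ones, Ccr7, Ccr2 and Xcr1, are also markers of dendritic cells or monocytes. Xcr1 read 1.80, 1.002 and 1.46 CPM in MRC1+ and 5.45, 5.30 and 8.64 CPM in CD11c+ libraries (log2 fold change -2.17 (SE 0.30), edgeR adjusted p = 0.00225). Others were Fpr2, a receptor of formyl peptides, at -1.48, Cxcr5 at -1.21, Cx3cr1 at -1.12, Gpr183 at -0.84 and Ccr1 at -0.66. The 2 higher members were Ccr3, also an eosinophil marker, at 0.89 and the complement C3a receptor C3ar1 at 0.60. The calls of Cxcr5, Gpr183 and Ccr3 were each lost in at least 1 of the fits without MRC1+ libraries 1, 2 and 3 and CD11c+ libraries 2 and 3 (highest edgeR adjusted p of each gene, 0.128 to 0.165).

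The genes of eicosanoids and other lipid mediators changed in both directions, 6 higher and 12 lower of 35 tested (9 and 14 without CD11c+ library 1; lower count 6 without MRC1+ library 2). In the leukotriene branch, Alox5, the entry enzyme, read 62.5, 45.6 and 54.97 CPM in MRC1+ and 26.1, 18.9 and 26.4 CPM in CD11c+ libraries (log2 fold change 1.19 (SE 0.16), edgeR adjusted p = 0.00225). Ltc4s, which makes leukotriene C4 from the same intermediate, read 2.24, 1.64 and 2.56 CPM in MRC1+ and 0.821, 0.357 and 0.618 CPM in CD11c+ libraries (log2 fold change 1.82 (SE 0.35), edgeR adjusted p = 0.0105). Both enzymes were thus higher in MRC1+ cells. Lta4h, which turns that intermediate into leukotriene B4, read 69.0, 59.3 and 61.6 CPM in MRC1+ and 87.9, 90.2 and 111 CPM in CD11c+ libraries (log2 fold change -0.60 (SE 0.11), edgeR adjusted p = 0.00976). Ltb4r1, the leukotriene B4 receptor, read 14.6, 11.6 and 12.9 CPM in MRC1+ and 61.4, 82.4 and 94.1 CPM in CD11c+ libraries (log2 fold change -2.60 (SE 0.17), edgeR adjusted p = 8.29e-05). Cyp4f18, which inactivates leukotriene B4 and is counted among the cytochromes P450, was lower as well, at 15.7, 13.4 and 12.4 CPM against 56.2, 56.2 and 73.8 CPM (log2 fold change -2.16 (SE 0.15)).

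In the prostaglandin branch, Hpgds, a prostaglandin D synthase, read 109, 109.6 and 111 CPM in MRC1+ and 37.5, 51.6 and 35.0 CPM in CD11c+ libraries (log2 fold change 1.40 (SE 0.14), edgeR adjusted p = 0.000536). Ptgs2, the inducible cyclooxygenase, read 594, 645 and 1299 CPM in MRC1+ and 1425, 1952 and 4472 CPM in CD11c+ libraries. Its spread was wide: replicate 3 was the highest in both groups, and the log2 fold change was -1.63 (SE 0.46) with an edgeR adjusted p = 0.0452. The call of Ptgs2 was lost in 4 of the 6 fits that left out 1 library, with edgeR adjusted p = 0.141 without MRC1+ library 1, 0.149 without MRC1+ library 2, 0.0682 without CD11c+ library 2 and 0.104 without CD11c+ library 3. It was also lost with DESeq2 (adjusted p = 0.0593) and with a filter of at least 5 CPM in 3 libraries (edgeR adjusted p = 0.0501). S1pr1, the receptor for sphingosine 1-phosphate that guides leukocytes out of tissue, was higher in MRC1+ cells. It read 26.5, 22.7 and 34.9 CPM in MRC1+ and 5.10, 3.75 and 6.17 CPM in CD11c+ libraries (log2 fold change 2.51 (SE 0.22), edgeR adjusted p = 0.000295).

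Regulators of intracellular signalling were called in both directions. Of 35 exchange factors and activating proteins of Ras and Rap, 9 were higher and 4 lower; the higher count was 3 without MRC1+ library 3 and 4 without MRC1+ library 2, and without CD11c+ library 1 there were 8 higher and 9 lower. A pair of diacylglycerol-responsive exchange factors went opposite ways. Rasgrp3 read 4.04, 4.90 and 6.03 CPM in MRC1+ and 1.29, 1.01 and 0.926 CPM in CD11c+ libraries (log2 fold change 2.18 (SE 0.25), edgeR adjusted p = 0.000952). Rasgrp1 read 36.6, 42.2 and 34.1 CPM in MRC1+ and 97.5, 132 and 108 CPM in CD11c+ libraries (log2 fold change -1.58 (SE 0.14), edgeR adjusted p = 0.000262). Rapgef3, the cyclic AMP sensor of Rap, was higher with a log2 fold change of 1.10 (SE 0.20), and Rap1gap2, which switches Rap off, was lower with -1.58 (SE 0.18). Adcy3, an adenylyl cyclase that makes cyclic AMP, read 43.4, 56.0 and 56.4 CPM in MRC1+ and 22.9, 21.0 and 19.97 CPM in CD11c+ libraries (log2 fold change 1.28 (SE 0.13), edgeR adjusted p = 0.000438).

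Feedback inhibitors of cytokine signalling held 2 wide gaps in the same direction. Of 33 dual-specificity phosphatases, SOCS and Sprouty inhibitors, 5 were lower and 3 higher (6 and 7 without CD11c+ library 1; lower count 3 without MRC1+ library 1, MRC1+ library 2, CD11c+ library 2 or CD11c+ library 3). Socs2 read 2.18, 3.53 and 2.25 CPM in MRC1+ and 14.5, 15.1 and 16.1 CPM in CD11c+ libraries (log2 fold change -2.503 (SE 0.20), edgeR adjusted p = 0.000197). Cish read 2.86, 4.32 and 4.02 CPM in MRC1+ and 13.2, 21.3 and 24.8 CPM in CD11c+ libraries (log2 fold change -2.39 (SE 0.26), edgeR adjusted p = 0.000844). Both encode SH2 proteins known to be induced through STAT5 by growth hormone and by cytokines such as GM-CSF. Among 13 RGS proteins, which shorten G protein signals, 4 were lower, Rgs1, Rgs2, Rgs9 and Rgs14, and Rgs3 was higher (5 and 4 without CD11c+ library 1). Rgs2 read 92.1, 72.5 and 60.0 CPM in MRC1+ and 187, 199.6 and 207 CPM in CD11c+ libraries (log2 fold change -1.40 (SE 0.15)), and Rgs3 read 20.3, 22.4 and 21.6 CPM and 7.91, 6.43 and 7.72 CPM (log2 fold change 1.55 (SE 0.13)).

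Of 65 phosphoinositide kinases, phosphatases and phospholipases C, 14 were lower and 5 higher (18 and 9 without CD11c+ library 1; higher count 3 without MRC1+ library 2, MRC1+ library 3 or CD11c+ library 2). The lower members held the leukocyte enzymes Plcg2, Plcb2, Pik3cd and Pik3r6. Plcg2, which acts below immunoreceptors, read 102, 102 and 101 CPM in MRC1+ and 218, 255 and 292 CPM in CD11c+ libraries (log2 fold change -1.33 (SE 0.11), edgeR adjusted p = 0.000261). Inpp4b, a phosphatase that removes products of PI3-kinase, was higher, at 94.1, 93.1 and 87.6 CPM against 40.6, 54.7 and 35.4 CPM (log2 fold change 1.07 (SE 0.15), edgeR adjusted p = 0.00263). Of 27 protein tyrosine phosphatases, 5 were higher and 7 lower (7 and 7 without CD11c+ library 1). Ptprc, which encodes the leukocyte antigen CD45, read 1064, 936 and 846 CPM in MRC1+ and 1806, 2134 and 2089 CPM in CD11c+ libraries (log2 fold change -1.08 (SE 0.12), edgeR adjusted p = 0.000936). Ptprm, a receptor phosphatase that binds its own kind, read 21.7, 26.4 and 26.6 CPM and 8.79, 9.89 and 7.41 CPM (log2 fold change 1.505 (SE 0.14)). The higher count was 3 without MRC1+ library 2 or MRC1+ library 3, and the lower count 4 without MRC1+ library 1 or CD11c+ library 2.

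With 6 libraries, actin-binding proteins were more often lower than higher in MRC1+ cells, and motor proteins more often higher. Of 53 actin-binding proteins, 18 were lower and 7 higher (21 and 9 without CD11c+ library 1). The lower count was 11 without MRC1+ library 2 or MRC1+ library 3, and the higher count was 4 with the replicate block and 1 to 3 when any of the other 5 libraries was left out. Parvg, an integrin-linked parvin of blood cells, read 14.9, 13.6 and 10.6 CPM in MRC1+ and 66.2, 86.4 and 81.7 CPM in CD11c+ libraries (log2 fold change -2.58 (SE 0.15), edgeR adjusted p = 5.96e-05). Coro1a, Hcls1, Was, Evl, Vasp and Fmnl1, which build, branch or bind actin, were among the other lower members, at -1.22 for Coro1a and -1.39 for Fmnl1 on the log2 scale.

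The related coronins Coro2a and Coro2b went opposite ways. Coro2a read 11.1, 10.1 and 10.7 CPM in MRC1+ and 56.2, 70.8 and 80.8 CPM in CD11c+ libraries (log2 fold change -2.70 (SE 0.15), edgeR adjusted p = 4.53e-05). Coro2b read 1.43, 2.21 and 2.80 CPM in MRC1+ and 0.234, 0.179 and 0.206 CPM in CD11c+ libraries, near the lower end of what was counted (log2 fold change 3.33 (SE 0.40), edgeR adjusted p = 0.00124). The other higher actin-binding members were of adhesion plaques and stress fibres, which fibroblasts also express: Pls3, Tln2, Cttn, Vcl, Actn1 and Daam1. For Pls3 the CD11c+ values were 51.7, 26.9 and 27.2 CPM and the MRC1+ values 75.9, 75.4 and 82.6 CPM, and library 1 of CD11c+ was the nearest to MRC1+. The calls of these 6 genes were each lost in at least 1 of the fits without MRC1+ libraries 1, 2 and 3 and CD11c+ libraries 2 and 3 (highest edgeR adjusted p of each gene, 0.0597 to 0.193).

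Of 55 myosin and kinesin motors, 16 were higher and 4 lower (18 and 7 without CD11c+ library 1). The higher count was 5 without MRC1+ library 3, 6 without MRC1+ library 2 and 7 without CD11c+ library 2 or CD11c+ library 3. The higher kinesins included Kif2c, Kif4, Kif18a, Kif18b, Kif20a, Kif20b and Kifc1, which work on the spindle of dividing cells, with log2 fold changes from 0.37 for Kif4 to 0.64 for Kif18a. The calls of Kif4, Kif18a, Kif20a, Kif20b and Kifc1 were each lost in at least 1 of the fits without MRC1+ libraries 1, 2 and 3 and CD11c+ libraries 2 and 3 (highest edgeR adjusted p of each gene, 0.115 to 0.159), and those of Kif2c and Kif18b in none. Of the other motors, Kif3a, Kif13b and Myo7a, which move cargo and cilia or act in phagocytes, were higher in every such fit, with 0.87, 0.56 and 0.58. The lower motors were Myo1g and Myo1f, class I myosins of blood cells, Kif1a and Kif21b. Myo1g read 115, 122 and 133.5 CPM in MRC1+ and 272, 381 and 469 CPM in CD11c+ libraries (log2 fold change -1.60 (SE 0.19), edgeR adjusted p = 0.00102).

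Rac proteins drive protrusion of the actin cortex. Rac2, the Rac form of blood cells, and Dock8, an exchange factor of Cdc42 in leukocytes, were lower, by log2 values of -0.85 and -1.14. Rac3 was higher, at 9.76, 6.54 and 8.65 CPM in MRC1+ and 3.63, 3.57 and 4.42 CPM in CD11c+ libraries (log2 fold change 1.11 (SE 0.20), edgeR adjusted p = 0.00809). Chn2, a Rac-inactivating protein switched on by diacylglycerol, read 1.18, 1.58 and 1.65 CPM in MRC1+ and 6.86, 6.43 and 11.4 CPM in CD11c+ libraries (log2 fold change -2.46 (SE 0.28), edgeR adjusted p = 0.00102).

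**Figure D4:**
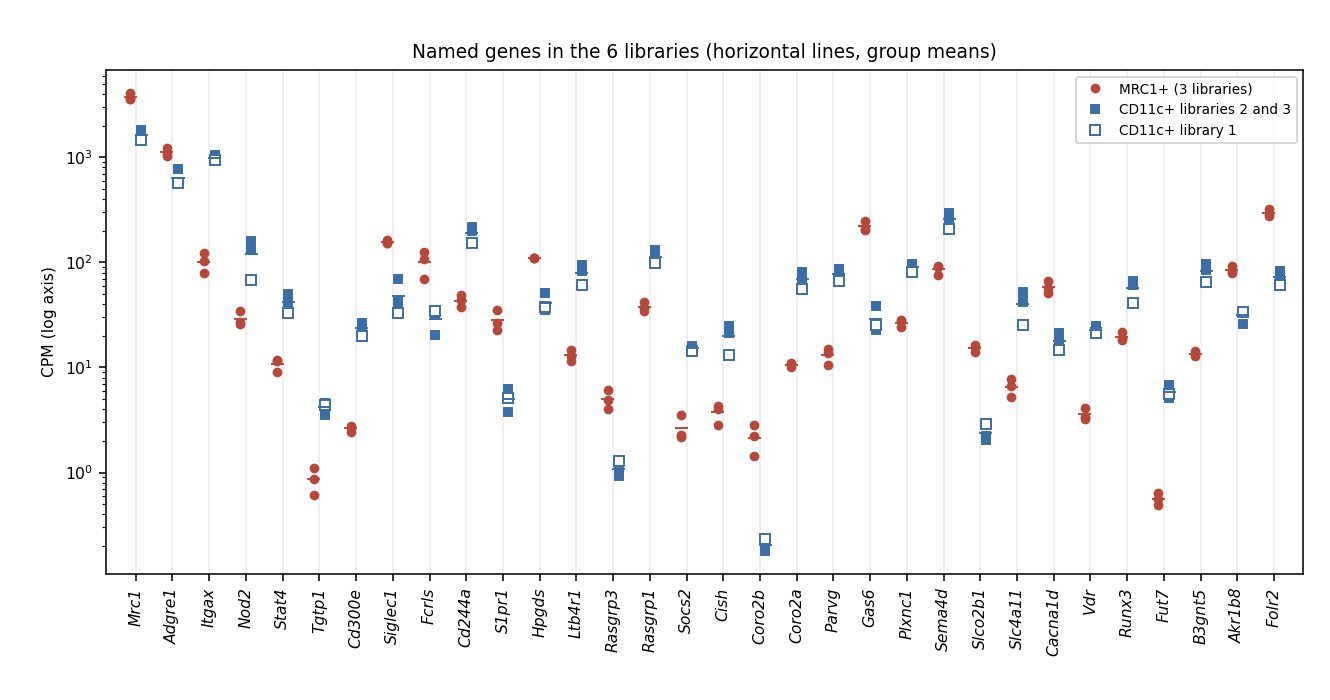
CPM of 32 named genes in the 6 libraries, on a log axis. Filled circles are MRC1+ libraries, filled squares CD11c+ libraries 2 and 3, open squares CD11c+ library 1, and short lines the group means; the groups do not overlap for any gene shown, from Mrc1 at 4099, 3623 and 3609 CPM in MRC1+ libraries to Coro2b at 0.234, 0.179 and 0.206 CPM in CD11c+ libraries.

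Growth factors and their receptors were higher in MRC1+ cells more often than lower. Of 63 tested, 14 were higher and 3 lower, and 35 and 6 without CD11c+ library 1, with medians of 0.68 and 0.94. The higher count was 5 without MRC1+ library 2 or MRC1+ library 3, 7 without CD11c+ library 2 and 9 without CD11c+ library 3, and the block fit gave 16 higher and 5 lower. In mean level over the family, CD11c+ library 1 lay between its group and the MRC1+ libraries, as it did above them for the fibroblast markers (sums of 890.2 to 1143 CPM in MRC1+ and 381 to 1522 CPM in CD11c+ libraries). The part of those cells in this was not tested.

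Gas6 was the ligand gene with the widest gap among those named above a mean of 2 CPM. It encodes the bridge between dying cells and the receptors Axl and Mertk, and read 204, 209.8 and 246 CPM in MRC1+ and 25.3, 38.7 and 22.5 CPM in CD11c+ libraries (log2 fold change 2.92 (SE 0.20), edgeR adjusted p = 9.34e-05). CD11c+ library 1 lay between the other 2 of its group. Mertk read 173, 151 and 144 CPM in MRC1+ and 104, 126 and 92.2 CPM in CD11c+ libraries (log2 fold change 0.54 (SE 0.13), edgeR adjusted p = 0.027). Axl went the other way, at 254, 298 and 238 CPM in MRC1+ and 518, 457 and 370.3 CPM in CD11c+ libraries (log2 fold change -0.77 (SE 0.14), edgeR adjusted p = 0.00911). Mertk and Axl were chosen after their values were seen, and the call of Mertk was lost in each of the fits without MRC1+ libraries 1, 2 and 3 and CD11c+ library 3 (highest edgeR adjusted p = 0.0793).

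Igf1, a growth factor that macrophages make during repair, read 60.6, 72.0 and 78.1 CPM in MRC1+ and 12.5, 14.2 and 11.7 CPM in CD11c+ libraries, a log2 fold change of 2.45 (SE 0.13). Pdgfc, a mitogen of stromal cells, read 23.5, 25.6 and 26.0 CPM in MRC1+ and 10.1, 7.45 and 5.66 CPM in CD11c+ libraries, where library 1 was the highest of its group (log2 fold change 1.67 (SE 0.19)). Pdgfa, another such mitogen, was higher with 0.91, and Igfbp3, which binds IGF1 outside the cell, with 1.36. Fgf1, Fgf9, Fgf11, Vegfb, Nrg4 and Angpt2 were the other higher ligands, and the call of each was lost in at least 1 of the fits without MRC1+ libraries 1, 2 and 3 and CD11c+ libraries 1, 2 and 3 (highest edgeR adjusted p of each gene, 0.072 to 0.184). The lower receptors Flt3 and Kit, which stand among the dendritic cell markers, had the widest gaps in the other direction. Kit read 6.16, 6.38 and 4.94 CPM in MRC1+ and 27.8, 27.9 and 35.1 CPM in CD11c+ libraries, a log2 fold change of -2.37 (SE 0.15).

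Guidance molecules known from axons split between the groups. Of 44 tested, 7 were higher and 6 lower (17 and 7 without CD11c+ library 1). The higher count was 2 without MRC1+ library 2 or MRC1+ library 3 and 4 without CD11c+ library 2, and the lower count 3 when any of the other 5 libraries was left out. The lower members held the semaphorins and plexins of leukocytes. Plxnc1, a plexin that binds Sema7a, read 24.4, 27.4 and 28.5 CPM in MRC1+ and 80.9, 91.7 and 96.3 CPM in CD11c+ libraries (log2 fold change -1.74 (SE 0.10), edgeR adjusted p = 5.96e-05). Sema4d, a semaphorin of immune cells and angiogenesis, read 75.1, 90.6 and 93.1 CPM in MRC1+ and 208, 266 and 296 CPM in CD11c+ libraries (log2 fold change -1.57 (SE 0.15), edgeR adjusted p = 0.000377). The higher members were Nrp1, Nrp2, Plxna2, Sema3b, Sema4c, Slit1 and Unc5a, and the calls of the last 5 were each lost in at least 1 of the fits without MRC1+ libraries 1, 2 and 3 and CD11c+ libraries 2 and 3 (highest edgeR adjusted p of each gene, 0.0587 to 0.125). Nrp1, a semaphorin and VEGF co-receptor, read 347, 329 and 350.0 CPM in MRC1+ and 133.9, 138 and 107 CPM in CD11c+ libraries, a log2 fold change of 1.44 (SE 0.11).

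The count of higher cadherins and protocadherins rose when CD11c+ library 1 was left out and fell when any other library was. With 6 libraries 6 of 26 were higher and 1 was lower. Without CD11c+ library 1 all 7 of these calls were kept and 16 were higher. The higher count was 0 without MRC1+ library 2, 1 without MRC1+ library 3 or CD11c+ library 2 and 3 without CD11c+ library 3. Fat1 shows the pattern, at 12.7, 16.4 and 18.5 CPM in MRC1+ and 10.96, 6.25 and 4.84 CPM in CD11c+ libraries, with library 1 of CD11c+ near the MRC1+ values (log2 fold change 1.08 (SE 0.28) with it and 1.49 without it). Its edgeR adjusted p was 0.0356 with 6 libraries, 0.0538 with the replicate block, 0.153 with all 12 libraries of the series in 1 fit, and above 0.05 without any 1 of the other 5 libraries. Cdh1, or E-cadherin, was the 1 lower member and an exception to the pattern. It read 6.09, 3.69 and 3.78 CPM in MRC1+ and 51.5, 59.8 and 65.6 CPM in CD11c+ libraries, a log2 fold change of -3.71 (SE 0.20).

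Other surface families split evenly. Of 15 adhesion G protein-coupled receptors, 4 were higher and 4 lower (6 and 4 without CD11c+ library 1). Adgrg5 read 1.49, 0.58 and 0.731 CPM in MRC1+ and 17.6, 23.2 and 17.1 CPM in CD11c+ libraries (log2 fold change -4.38 (SE 0.30), edgeR adjusted p = 9.2e-05). Adgre4, a relative of F4/80, read 16.6, 9.02 and 9.93 CPM in MRC1+ and 71.9, 75.2 and 107 CPM in CD11c+ libraries (log2 fold change -2.84 (SE 0.25)), opposite in direction to Adgre1. Adgrl2, a latrophilin, was higher, at 25.4, 29.8 and 31.7 CPM against 8.68, 9.17 and 9.98 CPM (log2 fold change 1.65 (SE 0.12)), and Adgrl3, another latrophilin, was lower with -3.50 (SE 0.56). Of 21 tetraspanins, 5 were higher and 7 lower (7 and 8 without CD11c+ library 1; lower count 3 without MRC1+ library 3, CD11c+ library 2 or CD11c+ library 3 and 4 without MRC1+ library 2). Tspan13 read 7.83, 8.91 and 5.61 CPM in MRC1+ and 35.2, 56.4 and 58.2 CPM in CD11c+ libraries (log2 fold change -2.74 (SE 0.24), edgeR adjusted p = 0.000271). Cd63, a tetraspanin of late endosomes, was higher with 0.75, and Cd37, of leukocytes, with 0.96.

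Solute carriers, the largest family measured, stood over the background in both directions, with 25 higher and 32 lower of 227 (41 and 49 without CD11c+ library 1; higher count 12 without MRC1+ library 2 or MRC1+ library 3). Their median was 0.02, like that of all genes. Slco2b1, a carrier of organic anions and steroid sulfates, read 15.5, 14.0 and 16.5 CPM in MRC1+ and 2.87, 2.20 and 2.06 CPM in CD11c+ libraries (log2 fold change 2.67 (SE 0.17), edgeR adjusted p = 7.25e-05). Slc10a6, another carrier of steroid sulfates, read 5.97, 4.32 and 3.84 CPM in MRC1+ and 0.586, 1.31 and 0.515 CPM in CD11c+ libraries (log2 fold change 2.48 (SE 0.36)). Slc39a12, a zinc importer, read 7.34, 7.17 and 8.04 CPM in MRC1+ and 1.47, 1.91 and 1.03 CPM in CD11c+ libraries (log2 fold change 2.31 (SE 0.23)), and Slc39a8, another, was higher with 2.31. Slc4a8, a bicarbonate carrier, was lower, at 1.62, 1.05 and 1.22 CPM against 5.22, 9.35 and 13.6 CPM (log2 fold change -2.83 (SE 0.38)). Slc4a11, of the same family, read 5.29, 7.70 and 6.64 CPM in MRC1+ and 25.3, 52.2 and 41.7 CPM in CD11c+ libraries, with library 1 of CD11c+ the lowest of its group (log2 fold change -2.60 (SE 0.27), edgeR adjusted p = 0.000647). Slc7a11, the cystine importer, was lower with a log2 fold change of -2.01.

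Ion channels and aquaporins came to 17 higher and 9 lower of 97 (30 and 15 without CD11c+ library 1; higher count 6 without MRC1+ library 3 and 10 without MRC1+ library 2 or CD11c+ library 2, lower count 5 without MRC1+ library 3). Mcoln2, a cation channel of endosomes and lysosomes, read 45.5, 46.1 and 48.0 CPM in MRC1+ and 8.73, 15.1 and 14.2 CPM in CD11c+ libraries (log2 fold change 1.88 (SE 0.19), edgeR adjusted p = 0.000464). Subunits of voltage-gated calcium channels went both ways. Cacna1d, the pore of an L-type channel, read 56.7, 51.3 and 66.7 CPM in MRC1+ and 14.5, 21.1 and 17.7 CPM in CD11c+ libraries (log2 fold change 1.71 (SE 0.16), edgeR adjusted p = 0.000345). Cacnb3, a subunit that brings pores to the membrane, read 2.49, 2.69 and 3.29 CPM in MRC1+ and 7.33, 10.4 and 19.6 CPM in CD11c+ libraries (log2 fold change -2.11 (SE 0.36)). The aquaporins went both ways. Aqp1 and Aqp3 were higher, with 1.68 and 1.36, and their calls were lost in at least 1 of the fits without MRC1+ libraries 1, 2 and 3 and CD11c+ libraries 2 and 3 (highest edgeR adjusted p of each gene, 0.0541 to 0.126). Aqp9 read 3.61, 2.53 and 3.60 CPM in MRC1+ and 11.9, 11.02 and 15.8 CPM in CD11c+ libraries (log2 fold change -1.99 (SE 0.21), edgeR adjusted p = 0.00068).

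Of 35 ABC transporters, 5 were higher and 7 lower (6 and 9 without CD11c+ library 1), and the higher count was 3 without MRC1+ library 1, MRC1+ library 2, MRC1+ library 3 or CD11c+ library 2. Abcb1a, the drug efflux pump P-glycoprotein, read 12.5, 8.12 and 8.59 CPM in MRC1+ and 41.5, 49.1 and 51.9 CPM in CD11c+ libraries (log2 fold change -2.29 (SE 0.18), edgeR adjusted p = 0.000161). Abca9 read 249.8, 239 and 227 CPM in MRC1+ and 124, 127 and 93.9 CPM in CD11c+ libraries (log2 fold change 1.05 (SE 0.12), edgeR adjusted p = 0.00111). The cholesterol exporters split, Abca1 higher with 0.88 and Abcg1 lower with -0.52. The call of Abcg1 was lost without MRC1+ library 3 and CD11c+ library 2 (highest edgeR adjusted p = 0.0686).

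The 3 genes of folate uptake given here were higher in MRC1+ cells. Folr2, the folate receptor of macrophages, read 319, 278 and 287 CPM in MRC1+ and 60.6, 83.5 and 71.6 CPM in CD11c+ libraries (log2 fold change 2.04 (SE 0.13), edgeR adjusted p = 7.25e-05). Slc46a1, the proton-coupled folate transporter, read 9.02, 7.75 and 7.86 CPM and 4.10, 4.59 and 4.94 CPM (log2 fold change 0.86 (SE 0.16), edgeR adjusted p = 0.00826). Slc19a1, the reduced folate carrier, read 12.6, 13.5 and 14.0 CPM and 9.97, 7.51 and 9.57 CPM (log2 fold change 0.57 (SE 0.14), edgeR adjusted p = 0.0312), and its call was lost without any 1 of MRC1+ libraries 1, 2 and 3 and CD11c+ libraries 2 and 3 (highest edgeR adjusted p = 0.129). In the whole folate, one-carbon and serine family 4 of 27 were higher and 1 was lower (2 lower with the block, 11 and 2 without CD11c+ library 1). That is 18.5% called, near the 16.6% of all genes, and 48.1% against 29.6% without CD11c+ library 1. The higher count was 2 without MRC1+ library 2, MRC1+ library 3 or CD11c+ library 2. The lower member was Mthfd2, a mitochondrial enzyme of folate metabolism, with a log2 fold change of -0.65, whose call was lost without MRC1+ library 2 (highest edgeR adjusted p = 0.0531).

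Enzymes of retinoids, aldehydes and foreign compounds came to 12 higher and 8 lower of 70 (23 and 10 without CD11c+ library 1; higher count 7 without MRC1+ library 2). Akr1b8, an aldose reductase, read 79.4, 81.9 and 93.2 CPM in MRC1+ and 33.9, 26.1 and 33.6 CPM in CD11c+ libraries (log2 fold change 1.44 (SE 0.12), edgeR adjusted p = 0.000265). Cyp2j6, a cytochrome P450, read 8.14, 7.96 and 7.37 CPM in MRC1+ and 2.05, 1.85 and 1.24 CPM in CD11c+ libraries (log2 fold change 2.15 (SE 0.21), edgeR adjusted p = 0.000406). Among genes of retinoic acid, Rdh5 and Dhrs3, which convert retinol and retinal, and Cyp26b1, which breaks retinoic acid down, were all higher, with 1.003, 0.95 and 0.99. The calls of Rdh5 and Cyp26b1 were lost in at least 1 of the fits without MRC1+ libraries 1, 2 and 3 and CD11c+ libraries 2 and 3 (highest edgeR adjusted p of each gene, 0.116 to 0.184). Besides Cyp4f18 the lower members held Cyp4f16 and Cyp4f37 of the same subfamily, with -1.51 and -1.83.

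Selenop, a secreted selenium carrier, was the most abundant higher member of the antioxidant family. It read 2102, 2270 and 2147 CPM in MRC1+ and 631, 1028 and 610.5 CPM in CD11c+ libraries, with library 2 the highest of CD11c+ (log2 fold change 1.52 (SE 0.20), edgeR adjusted p = 0.00186). Mgst1, a membrane glutathione transferase, read 31.8, 28.7 and 25.5 CPM in MRC1+ and 13.1, 12.2 and 13.1 CPM in CD11c+ libraries (log2 fold change 1.16 (SE 0.12), edgeR adjusted p = 0.000454). The family as a whole, with 6 higher and 4 lower of 67, was near the background (11 and 5 without CD11c+ library 1; higher count 2 without MRC1+ library 3 or CD11c+ library 2 and 3 without MRC1+ library 1 or MRC1+ library 2), and the block fit gave 5 higher and 7 lower.

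Glycan transferases and mannosidases were more often called lower with 6 libraries, 19 against 8 higher of 87 (24 and 20 without CD11c+ library 1; lower count 12 without CD11c+ library 2; higher count 3 without MRC1+ library 2 or MRC1+ library 3, 4 without CD11c+ library 2 and 5 without CD11c+ library 3). The median log2 fold change over all tested members was 0.06, and 47 of the 87 were above 0, so the family as a whole was not lower. Fut7, which completes the selectin ligand sialyl Lewis x, read 0.56, 0.633 and 0.488 CPM in MRC1+ and 5.57, 6.73 and 5.15 CPM in CD11c+ libraries (log2 fold change -3.36 (SE 0.24), edgeR adjusted p = 0.000101). Galnt3, which starts O-linked chains, read 5.29, 3.27 and 3.60 CPM in MRC1+ and 25.8, 27.6 and 25.8 CPM in CD11c+ libraries (log2 fold change -2.71 (SE 0.18), edgeR adjusted p = 8.29e-05). B3gnt5, which starts lacto-series glycolipids, read 14.3, 12.9 and 13.3 CPM in MRC1+ and 64.4, 85.2 and 96.7 CPM in CD11c+ libraries (log2 fold change -2.60 (SE 0.16), edgeR adjusted p = 5.96e-05). Sialyltransferases were among the lower members too: St3gal5 with -1.83, St8sia1 with -1.59, St8sia6 with -1.56, St8sia4 with -1.12 and St3gal4 with -0.95. Chst7, a sulfotransferase, was higher, at 7.96, 6.86 and 8.53 CPM against 2.05, 3.52 and 3.91 CPM (log2 fold change 1.32 (SE 0.24), edgeR adjusted p = 0.00904).

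Sphingolipid and phospholipid enzymes were called at 16.9%, near the 16.6% of all genes, and at 28.8% against 29.6% without CD11c+ library 1. Of 59 tested, 8 were lower and 2 higher (12 and 5 without CD11c+ library 1, and 5 higher with the block). Plbd1, a phospholipase of myeloid granules, read 282, 261 and 173 CPM in MRC1+ and 665, 794 and 713 CPM in CD11c+ libraries (log2 fold change -1.60 (SE 0.18), edgeR adjusted p = 0.000908). Cers6, a ceramide synthase, read 118, 97.1 and 103 CPM in MRC1+ and 204, 211 and 225 CPM in CD11c+ libraries (log2 fold change -1.01 (SE 0.10), edgeR adjusted p = 0.000422). The lower count was 5 without MRC1+ library 2 or MRC1+ library 3.

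Serpins of the intracellular B clade went both ways. Serpinb6a read 391, 366 and 390.5 CPM in MRC1+ and 155, 111 and 113 CPM in CD11c+ libraries (log2 fold change 1.60 (SE 0.14), edgeR adjusted p = 0.000268). Its close relative Serpinb6b read 22.9, 22.7 and 18.5 CPM in MRC1+ and 44.0, 44.0 and 71.6 CPM in CD11c+ libraries (log2 fold change -1.31 (SE 0.20), edgeR adjusted p = 0.00395). Serpinb9, an inhibitor of granzyme B, was lower in MRC1+ cells (log2 fold change -1.35 (SE 0.16), edgeR adjusted p = 0.00125). In all, 2 of 23 serpins were higher and 4 lower (6 and 5 without CD11c+ library 1). Mouse Serpinb6 and Serpinb9 genes have several close copies that may share reads. Among 27 ADAM and ADAMTS proteins 4 were higher and 2 lower (22.2% called, and 10 and 4 without CD11c+ library 1). Adam23, an ADAM without protease activity, read 0.373, 2.64 and 0.366 CPM in MRC1+ and 11.5, 17.0 and 19.2 CPM in CD11c+ libraries (log2 fold change -3.74 (SE 0.58), edgeR adjusted p = 0.00405). MRC1+ library 2 stood above libraries 1 and 3 for Adam23. Adam33 read 5.72, 6.70 and 6.16 CPM and 2.29, 3.40 and 2.57 CPM (log2 fold change 1.16 (SE 0.20)).

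Other transcription factors also differed by single members. Vdr, the vitamin D receptor, read 4.10, 3.38 and 3.23 CPM in MRC1+ and 21.2, 22.9 and 24.6 CPM in CD11c+ libraries (log2 fold change -2.68 (SE 0.14), edgeR adjusted p = 4.53e-05). The inducible orphan receptors Nr4a2 and Nr4a3 were lower too, Nr4a3 at 42.6, 61.9 and 74.96 CPM in MRC1+ and 141, 198 and 302 CPM in CD11c+ libraries (log2 fold change -1.83 (SE 0.30), edgeR adjusted p = 0.00476). Nuclear receptors came to 5 higher and 5 lower of 30, with 0 to 2 higher when any of the other 5 libraries was left out and 8 higher and 9 lower without CD11c+ library 1. The lower members included Pparg, a regulator of lipid handling, with -0.96. Of 36 bZIP factors, 4 were higher and 8 lower (12 lower with the block, 6 and 13 without CD11c+ library 1; lower count 5 without MRC1+ library 1 or MRC1+ library 2). Nfil3 read 91.3, 96.8 and 103 CPM in MRC1+ and 169.7, 247 and 287 CPM in CD11c+ libraries (log2 fold change -1.27 (SE 0.18), edgeR adjusted p = 0.0025). Maf, a factor of resident macrophages, was higher with a log2 fold change of 0.86. Nfil3 and the genes Dbp and Tef act on the same D-box element of the circadian clock, Nfil3 as a repressor. Dbp and Tef were higher, with 0.68 and 0.69, and both calls were lost in at least 1 of the fits without MRC1+ libraries 1, 2 and 3 and CD11c+ libraries 2 and 3 (highest edgeR adjusted p of each gene, 0.0839 to 0.154).

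In the mixed list of HMG, homeobox, Runt, GATA, ETS and bHLH factors, 5 of 61 were higher and 10 lower (19 and 14 without CD11c+ library 1; higher count 1 without CD11c+ library 2 and 2 without MRC1+ library 2, MRC1+ library 3 or CD11c+ library 3). Runx3, a Runt factor of lymphocytes and dendritic cells, read 19.0, 21.5 and 18.3 CPM in MRC1+ and 41.3, 67.0 and 61.1 CPM in CD11c+ libraries (log2 fold change -1.52 (SE 0.18), edgeR adjusted p = 0.00108). Bcl11a, a repressor needed for lymphoid and plasmacytoid lineages, read 0.622, 0.527 and 0.731 CPM in MRC1+ and 3.69, 3.63 and 4.84 CPM in CD11c+ libraries (log2 fold change -2.67 (SE 0.25)). Etv1, an ETS factor below receptor tyrosine kinases, was higher, at 30.03, 30.4 and 32.4 CPM in MRC1+ and 14.2, 9.95 and 8.44 CPM in CD11c+ libraries (log2 fold change 1.49 (SE 0.18), edgeR adjusted p = 0.00113). Library 1 of CD11c+ was the highest of its group for Etv1. Hdac9, a class II histone deacetylase, read 18.3, 17.1 and 21.5 CPM in MRC1+ and 8.62, 6.67 and 7.62 CPM in CD11c+ libraries (log2 fold change 1.31 (SE 0.15), edgeR adjusted p = 0.000908).

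Some families lay near or under the background share with 6 libraries. Histone and DNA modifying enzymes had 2 higher and 4 lower of 71 (7 lower with the block, 5 and 12 without CD11c+ library 1). S100 proteins and annexins had 0 higher and 1 lower of 18, and subunits of the vacuolar proton pump 0 and 1 of 20 (1 and 1, and 1 and 3, without CD11c+ library 1). SNARE proteins and synaptotagmins had 3 higher and 4 lower of 39, and Kruppel-like and Sp factors 1 and 2 of 16 (9 and 8, and 3 and 2, without that library). The Wnt and Notch pathway was called at 21.2% and had 4 higher and 3 lower of 33 (9 and 3 without CD11c+ library 1). Within it Wnt11, a non-canonical ligand, read 0.311, 0.949 and 1.71 CPM in MRC1+ and 5.63, 9.11 and 14.9 CPM in CD11c+ libraries (log2 fold change -3.29 (SE 0.52), edgeR adjusted p = 0.00454). Adenylyl cyclases and phosphodiesterases stood over the background, with 26.1% called, and had 3 higher and 3 lower of 23 (6 and 6 without CD11c+ library 1).

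Outside these families, the genes with the largest changes held further secreted and surface proteins. Il1r2, the decoy receptor of interleukin 1, read 18.8, 20.3 and 15.8 CPM in MRC1+ and 251, 410.0 and 512 CPM in CD11c+ libraries (log2 fold change -4.41 (SE 0.27), edgeR adjusted p = 6.14e-05). Klrb1b, a lectin-like receptor of NK cells and dendritic cells, read 15.5, 12.8 and 5.30 CPM in MRC1+ and 214, 239 and 196 CPM in CD11c+ libraries (log2 fold change -4.27 (SE 0.33), edgeR adjusted p = 0.000168). Napsa, an aspartic protease, read 5.53, 2.58 and 4.57 CPM and 46.2, 54.5 and 84.5 CPM (log2 fold change -3.87 (SE 0.31)). Ramp3, a partner of the calcitonin-like receptors, read 1.49, 1.21 and 1.46 CPM in MRC1+ and 14.4, 22.0 and 33.6 CPM in CD11c+ libraries (log2 fold change -4.06 (SE 0.34)). Ear2, a ribonuclease of eosinophils and monocytes, read 1.99, 1.74 and 1.34 CPM and 24.8, 24.2 and 33.4 CPM (log2 fold change -4.01 (SE 0.20)), and the class II gene H2-Eb2 1.43, 0.791 and 0.792 CPM and 19.4, 19.1 and 26.4 CPM (log2 fold change -4.42 (SE 0.25)).

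In the other direction, Npl, the lyase that breaks down sialic acid, read 97.1, 87.6 and 96.5 CPM in MRC1+ and 9.14, 20.7 and 10.7 CPM in CD11c+ libraries (log2 fold change 2.78 (SE 0.27), edgeR adjusted p = 0.000441). Cd55, which protects cells from complement, read 17.9, 29.3 and 25.6 CPM in MRC1+ and 2.05, 5.78 and 1.44 CPM in CD11c+ libraries (log2 fold change 2.91 (SE 0.42), edgeR adjusted p = 0.0029). Cd5l, a scavenger-type protein that macrophages secrete, read 10.5, 4.17 and 17.0 CPM and 1.41, 1.67 and 1.96 CPM, with a wide spread among MRC1+ libraries (log2 fold change 2.67 (SE 0.50), edgeR adjusted p = 0.00947). Ctla2b, a cysteine protease inhibitor, read 53.8, 36.9 and 43.3 CPM in MRC1+ and 9.26, 3.93 and 6.17 CPM in CD11c+ libraries (log2 fold change 2.78 (SE 0.28)), and its close copy Ctla2a may share its reads.

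The 2136 genes that passed only without CD11c+ library 1 comprised 1313 higher and 823 lower in MRC1+ cells. For 1084 of the 2136, the value in CD11c+ library 1 lay within the MRC1+ range or beyond it. In the higher direction, Cavin2, a caveolar coat protein, read 72.7, 66.7 and 68.8 CPM in MRC1+ and 67.7, 18.5 and 18.8 CPM in CD11c+ libraries. Library 1 stood among the MRC1+ values, so the log2 fold change was 0.97 (SE 0.45) with 6 libraries and 1.89 without it (edgeR adjusted p = 0.172 and 1.62e-05). Prkg2, a cyclic GMP-dependent kinase, read 44.9, 55.2 and 51.4 CPM and 41.5, 15.4 and 10.7 CPM. Library 1 was below the MRC1+ libraries for this gene but much nearer to them than libraries 2 and 3. For Mmp3, a stromal metalloprotease, and Slc38a4, an amino acid carrier, CD11c+ library 1 was above every MRC1+ library. None of these 4 passed with the replicate block (edgeR adjusted p from 0.0579 for Cavin2 to 0.109 for Mmp3).

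In the lower direction the pattern was another. Inhba, a subunit of activin, read 9.33, 10.2 and 19.5 CPM in MRC1+ and 19.99, 29.7 and 68.3 CPM in CD11c+ libraries, so that replicate 3 was the highest of both groups (edgeR adjusted p = 0.0524 with 6 libraries and 0.00739 without CD11c+ library 1). Il23a, a subunit of interleukin 23, read 0.56, 1.69 and 6.52 CPM and 3.63, 8.16 and 49.0 CPM, with overlap between the groups. Clec4e, a lectin that senses mycobacterial lipids, read 179, 154 and 286 CPM in MRC1+ and 314, 414 and 1047 CPM in CD11c+ libraries. With the replicate block, all 6 named lower genes passed, at edgeR adjusted p = 0.0017 for Inhba, 0.000514 for Il23a, 0.00612 for Clec4e, 0.00038 for Dnase1l3, 0.00352 for Ccrl2 and 0.0339 for Clcf1. Il33, an alarmin cytokine and 1 of the 6 named higher genes, also passed with the block (edgeR adjusted p = 0.0383), with values of 33.8, 20.8 and 55.4 CPM in MRC1+ and 26.7, 6.49 and 12.7 CPM in CD11c+ libraries that overlap.

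**Figure D5:**
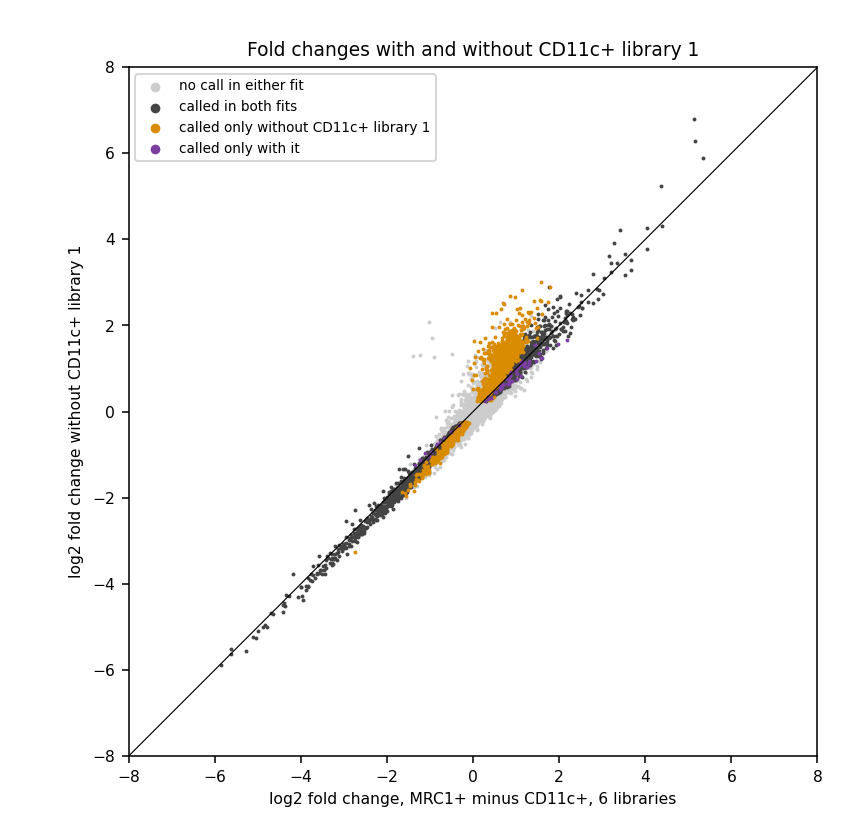
Log2 fold changes of genes tested in both fits, with 6 libraries on the x axis and without CD11c+ library 1 on the y axis. Each point is a gene and the line marks equal values; genes called only without that library (orange, 2136) lie above the line where they are higher in MRC1+ cells (1313) and a little below it where they are lower (823).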

How the data were processed

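RNA of sorted macrophages was sequenced after preparation with the TruSeq RNA kit, with fragmentation for 4 minutes at 94 °C, per the labels. The deposited files hold whole-number read counts per Ensembl gene that the authors made, on the build mm9 (NCBIM37); the tools listed in the submitters' processing notes are HTSeq, SAMtools 0.1.12a, TopHat 1.2.0 and Bowtie. No source used here gives the strand setting or the counting mode, which leaves genes that overlap, on either strand, uncertain. Reads with several alignments stand in a summary row and were counted to no gene. The 5 summary rows of each file were left out.

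Counts of the 6 libraries were filtered (filterByExpr), scaled by TMM and tested with edgeR 4.0.16 (quasi-likelihood, R 4.3.3) with Benjamini-Hochberg adjustment over 15622 genes. The depth was 10824918 to 17689064 counted reads per library. In a simulation on 15622 genes with 200 changed, this test recovered 73% of 2-fold and 96% of 4-fold changes, and 7.14% of its calls were false. Changes were planted only in genes above a low mean level, and the draw was made once. Libraries were drawn independently, with none set apart and no pairing by number. The rates therefore need not hold for genes with few reads or for these 6 libraries.

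Libraries of the same number deviated together (r = 0.104, 0.337 and 0.25 for numbers 1, 2 and 3, against -0.235 to -0.027 for other pairs), so the numbers were taken to pair the libraries, from the data alone, in an alternative with the number as a block. Deviations were taken from the mean of each group's own 3 libraries, so positive values for pairs of the same number force negative ones among other pairs. No label says that libraries of the same number share a mouse or day. Replicates of a group differed by more than sampling noise in every pair.

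The 53 gene lists were written by name pattern or symbol, and they, the members and the named genes were chosen with earlier results of these data known. After values were seen, 147 identifiers that a pattern had caught wrongly were removed, 63 of them among the tested genes. Named from each list were up to 3 members in each direction with the largest change among those at adjusted p under 0.05 with 6 libraries and without CD11c+ library 1. They also had at least a 2-fold difference, groups that did not overlap and a mean of at least 2 CPM on the higher side. Outside the lists up to 15 in each direction were taken at 10 CPM. For CD11c+ library 1 the 8 genes farthest from libraries 2 and 3, where these differed by under 1.5-fold, were taken in each direction. So were the 6 with the largest change that passed only without CD11c+ library 1. Other members are named as examples chosen after their values were seen, as were the pairs of related genes set side by side. Some members, and 1 of the lists, are not reported here. Gbp, Naip, Ifi200, Cd300, Trim30 and Serpinb genes have near-identical copies, and their split is uncertain. Promoter sequences are those of RefSeq on GRCm38.p6, matched by symbol for 10302 of 15622 tested genes. Alternatives were another scaling, other filters, DESeq2 1.42.0, all 12 libraries in 1 fit, the block, and each library left out in turn.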

Additional observations from a re-analysis of the deposited data

How the results depend on the processing

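With each library left out in turn, the genes higher in MRC1+ cells numbered 390 to 2356 and the lower genes 860 to 2351 (edgeR). The highest counts came without CD11c+ library 1, the lowest count of higher genes without MRC1+ library 3 and that of lower genes without MRC1+ library 2. Of the main 2597 calls, 2531 were also made without CD11c+ library 1, 1250 without MRC1+ library 2, 1266 without MRC1+ library 3 and 1433 without CD11c+ library 2. Fewer libraries were fitted in each case. The replicate block gave 1131 higher and 1657 lower, of which 2359 were main calls, and among the genes named by the rule it ended the calls of Fat1 (adjusted p = 0.0538) and Chst5 (adjusted p = 0.0572). DESeq2 ended that of Ptgs2 (adjusted p = 0.0593), and the filter of 5 CPM those of Ptgs2 (edgeR adjusted p = 0.0501) and Dusp2 (0.0512). The fit of all 12 libraries ended those of Alox15, Sema3b, Tcf7l1, Fat1, Spib, Chst5, Hmga2 and Kdr (edgeR adjusted p from 0.0543 for Hmga2 to 0.153 for Fat1). Beside the counts given with it in the text, the block moved no count of a family of 5 or more calls by over 1.5 times. DESeq2 gave 1274 and 1694, its size factors in edgeR 1072 and 1535, and all 12 libraries in 1 fit 1347 and 1978. With no filter the counts were 1498 and 1685, and with at least 5 CPM in 3 libraries 1016 and 1276. Of 192 named genes with a call, 159 kept it in all 6 fits that left out 1 library, and 158 in every alternative that tested them. Named genes with low counts, such as Coro2b, were not tested with the filter of 5 CPM, so their calls were not followed there. The rule mostly took genes with large changes that also passed without CD11c+ library 1, so these counts do not stand for all 2597 calls. Among named genes the direction turned only for those chosen for the distance of CD11c+ library 1, none of which passed with 6 libraries. The same rule made such a turn unlikely for the other named genes. Without CD11c+ library 1 the log2 fold change was 1.28 for Dcn, 1.27 for Fbn1, 1.36 for Dpt, 1.35 for Col3a1, 1.02 for Cpa3 and -0.55 for 4933423P22Rik. Without CD11c+ library 2 it was -0.34 for Dcn, -0.19 for Fbn1, -0.080 for Dpt, -0.014 for Col3a1 and -0.40 for Cpa3, and without CD11c+ library 3 it was -0.27 for Dcn, -0.11 for Fbn1, -0.05 for Dpt and 0.024 for 4933423P22Rik. Without MRC1+ library 1 it was -0.14 for Dcn and 0 for 4933423P22Rik, and without MRC1+ library 3 it was 0.015 for Cpa3. With the replicate block it was 0.25 for Cpa3. At this depth genes such as Coro2b rest on few reads in CD11c+ libraries.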
